A study of Mus musculus with 2 samples.

Results

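The mouse collagen genes, chosen as every gene whose symbol reads Col, a number, the letter a and a number, were described across the regions of a brain section. The gene panel held 44 of them among 19465 genes. Collagens are matrix proteins of 3 chains wound into a triple helix, and each type is built from its own set of chains. Fibrillar types such as I, III and V make the tough fibres of meninges and vessel walls, type IV makes the sheet under endothelium and pial glia, and type VI makes beaded filaments that link basement membranes to fibres. Types IX, XVI and XIX decorate fibrils, and a few chains, among them Col19a1, Col23a1 and Col25a1, are known from neurons rather than from connective tissue.

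The samples were brain sections of male mice aged 6 months, 1 from the G2-3 line, a transgenic model with A53T alpha-synuclein, and 1 from a wild-type (WT) animal. The assay, Visium CytAssist, ligates pairs of probes on their transcripts in the tissue and counts them as unique molecular identifiers (UMIs) on a slide of barcoded spots. No source used here states the promoter of the transgene or the strain of the WT mouse. By its title the study asked about synapses and microglia of the hippocampus, so collagens lie outside its stated question.

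Both samples hold the same count matrix, entry for entry, with all 2722 barcodes shared. They are therefore counted as 1 sample. No genotype can be assigned to it and no collagen can be compared between G2-3 and WT. Tissue was taken from the WT list of spot positions, which left 2485 spots with 20997947 UMIs. The median spot had 6686 UMIs (1183 to 80174). By the G2-3 list 2969 spots lie under tissue, and 751 of those have no counts. Places under tissue without counts were not counted for the WT list, so the fit of the lists is not compared. A spot can hold several cells or parts of cells, so fewer cells of a type and less RNA per cell cannot be told apart in any value below. With 1 library no test was possible: intervals are 95% intervals from Poisson counts and cover counting error only, and no p-value is given.

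The spots fell into 16 regions by their gene expression, with the collagens and all marker and pathway genes left out of the clustering. Each region is called by its 2 leading genes that are no collagen. The defining markers named Ptgds/Foxc2 as meninges (12 of 14 markers at least 2-fold higher there after adding 10 CPM), Igfn1/Clec18a as upper cortex, Myl4/Ighm as deep cortex, Ccn2/Cplx3 as layer 6b, C1ql2/Pcdh20 as dentate gyrus and Trf/Klk6 as white matter. Irx2/Cdh23 and Cartpt/Tcf7l2 were named midbrain and pons. Myoc/Acta2 had 11 meninges markers but stayed unnamed, because hemoglobin genes outnumbered them among its 10 leading genes. Its hemoglobin list summed to 36834 CPM (UMIs of a gene or list scaled to a total of 1000000), against 1925 in all other spots. The markers also named Gpr161/Fezf2 hippocampal pyramidal layer (6 markers), Slc6a3/Th white matter (9 markers) and Slc18a3/Cartpt dopaminergic midbrain (3 markers). These names are not used below, and these and the remaining regions are called by their genes only.

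The collagens gave 13867 UMIs, or 660 CPM. At least 100 UMIs were seen for 23 of the 44 genes (52.3%, against 56.5% of all genes), 20 had between 1 and 99, and Col17a1 had 0, which allows a level of up to 0.143 CPM. The 8 basement membrane chains had 4409 UMIs, the 9 fibril-associated chains 3388, the 11 fibrillar chains 2855, the 9 beaded-filament and anchoring chains 1702, the 4 transmembrane chains 1442 and the 3 short-chain network genes 71. Probes differ between genes, so levels are compared between regions for a gene and not between genes. Summed collagen was highest in Myoc/Acta2 (1441 CPM) and in Ptgds/Foxc2 (1244 CPM), and lay between 433 CPM in the dentate gyrus and 733 CPM in Cartpt/Tcf7l2 in the other 14 regions. These leading regions differ in place: 75 of the 94 Ptgds/Foxc2 spots (79.8%) lie at the edge of the section, and 44 of the 169 Myoc/Acta2 spots (26.0%). Of the 23 chains with at least 100 UMIs, 5 had their highest level in either of them.

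**Figure D1:**
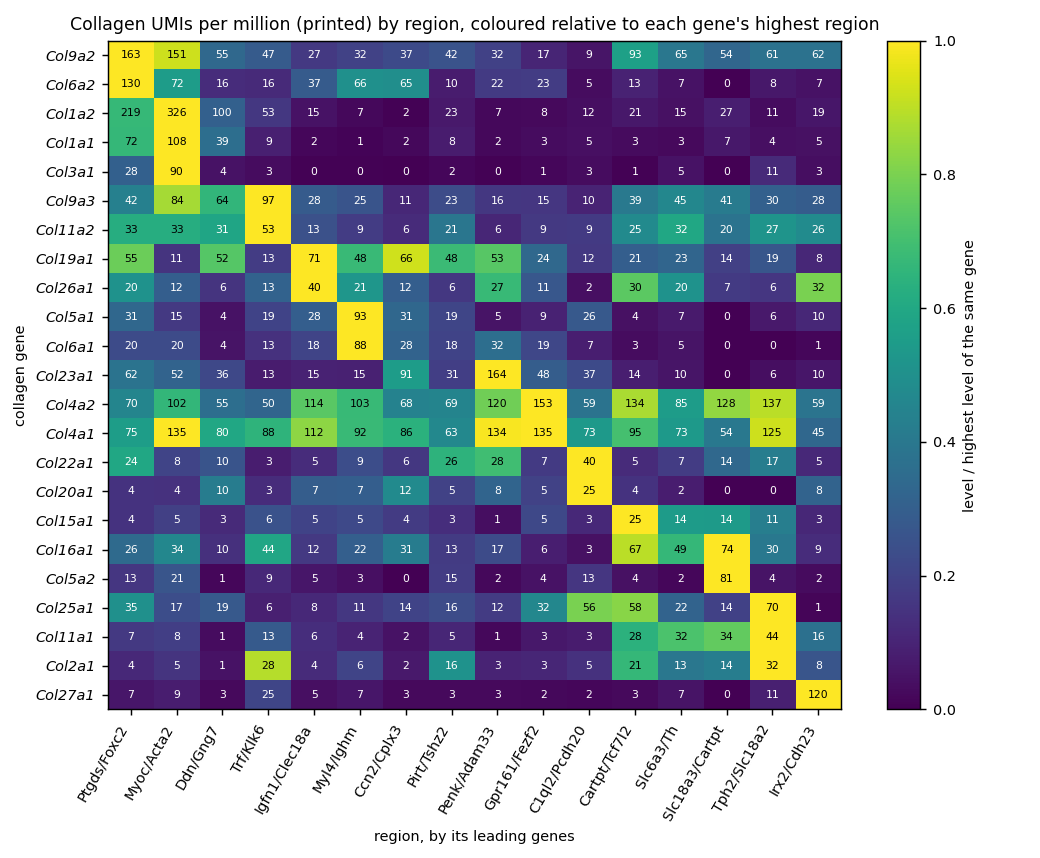
Level of each of the 23 collagens with at least 100 UMIs (rows) in the 16 regions (columns), printed in CPM and coloured as a share of the gene's own highest region. The type I and III chains peak in Myoc/Acta2, Col5a1 and Col6a1 in Myl4/Ighm, Col23a1 in Penk/Adam33 and Col27a1 in Irx2/Cdh23.

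Among chains with at least 100 UMIs, those of type I collagen had the highest ratios in the meningeal region, followed by Col6a2 and Col3a1. Col1a2 (ENSMUSG00000029661), the second chain of type I collagen, had 119 UMIs in its 94 spots and 599 in all other spots, which is 219 against 29.3 CPM and a log2 ratio of 2.90 (2.60 to 3.19). Col1a1, the major chain of the same collagen, had 71.6 against 8.65 CPM (39 and 177 UMIs), a log2 ratio of 3.05 (2.51 to 3.56). Col3a1, the single chain of type III collagen of soft tissue and vessel walls, had 27.6 against 5.57 CPM (15 and 114 UMIs) and a log2 ratio of 2.31 (1.42 to 3.09). These 3 chains were thus several-fold higher over the meninges, and each interval lay above 2-fold. Col5a2, which joins type V fibrils, had 7 UMIs there and a log2 ratio of 1.21 whose interval (-0.14 to 2.30) held 0. The other spots include Myoc/Acta2, which held 76 of their 114 Col3a1 UMIs, so the order of the ratios depends on them. Over the alternatives the ratio ran from 2.10 to 5.08 for Col3a1 and from 2.93 to 4.41 for Col1a1. It ran from 2.90 to 4.11 for Col1a2 and from 1.99 to 2.45 for Col6a2.

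Beyond the fibrillar class, Col6a2 of type VI collagen had 71 UMIs in the meningeal region and a log2 ratio of 2.33 (1.96 to 2.69). Col9a2 of type IX collagen had 89 UMIs and a log2 ratio of 1.82 (1.49 to 2.13). In all, 6 of 23 collagens (26.1%) were at least 2-fold higher in the meningeal region, against 6.23% of 11003 genes measured the same way. Another 3 collagens were at least 2-fold lower, against 9.12% of all genes, but with 2 to 4 UMIs each and intervals that held 0. The median log2 ratio of the collagens was 0.53 and that of all genes -0.13. The hemoglobin list had 8483 CPM in this region against 3195 in the other spots, the endothelium list 759 against 395, the mural list 301 against 138 and the astrocyte list 8024 against 3761. The part of these cells in the collagen values was not tested.

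The type I and III chains were still higher in Myoc/Acta2, a region of 169 spots that lie mostly deeper than the edge. Col3a1 had 76 of its 129 UMIs there, 89.8 CPM against 2.63 elsewhere, a log2 ratio of 5.09 (4.57 to 5.63). The ratio was 4.12 (3.71 to 4.52) for Col1a1 with 107.5 CPM and 3.89 (3.67 to 4.11) for Col1a2 with 326 CPM. Col5a2 had a log2 ratio of 2.06 (1.25 to 2.79), Col9a2 1.75 (1.47 to 2.01), Col9a3 1.59 (1.21 to 1.95) and Col6a2 1.43 (1.02 to 1.81). These 7 of 23 collagens stood against 11.4% of all genes at least 2-fold higher in the region. Col19a1, a chain made by neurons, had a log2 ratio of -1.78 (-2.92 to -0.85), which shrank to -0.28 without a UMI minimum and to -0.47 with no gene left out of the clustering, short of 2-fold. With Col20a1 at -1.14 (-3.43 to 0.44), 2 of 23 collagens were at least 2-fold lower, against 10.3% of genes. The mural list had 1372 CPM in the region against 90.9 elsewhere, the meninges list 4039 against 252 and the endothelium list 1109 against 375. Their part was not tested.

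Between Myoc/Acta2 and Ptgds/Foxc2 the collagens differed in level. Col3a1 was higher in Myoc/Acta2 than in Ptgds/Foxc2 by a log2 ratio of 1.70 (0.89 to 2.61), Col1a1 by 0.59 (0.03 to 1.17) and Col1a2 by 0.58 (0.26 to 0.90). Col6a2 went the other way, higher in Ptgds/Foxc2 by 0.86 (0.34 to 1.37). Col9a2 did not differ beyond counting error, at 163 against 151 CPM. At the edge of the section Myoc/Acta2 spots had 528 CPM of Col1a2 (434 to 637, 44 spots) and deeper ones 260.1 CPM (222 to 303, 125 spots). Ptgds/Foxc2 spots had 257 CPM (211 to 310, 75 spots) at the edge and 77.0 CPM (35.2 to 146, 19 spots) deeper. Within each region the level of Col1a2 was therefore higher at the outer rim.

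**Figure D2:**
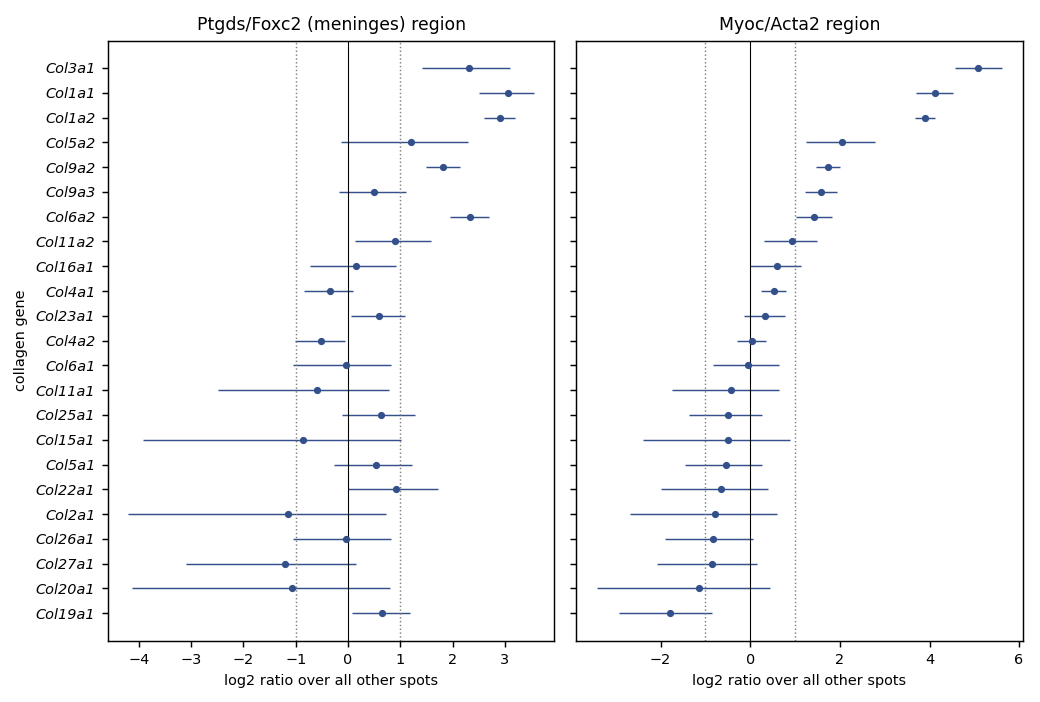
Log2 ratio of each collagen in the Ptgds/Foxc2 region (left) and the Myoc/Acta2 region (right) over all other spots, with 95% intervals from counts as lines and dotted lines at 2-fold. Col1a1, Col1a2 and Col3a1 lie to the right of 2-fold in both panels, while the type IV chains Col4a1 and Col4a2 lie between the dotted lines.

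The promoter windows of Col1a2 and Col3a1 are shown because both chains were high in Ptgds/Foxc2 and in Myoc/Acta2. They were not in step: Myoc/Acta2 had 0.28 UMIs of Col3a1 for each of Col1a2 (0.21 to 0.36) and Ptgds/Foxc2 0.13 (0.07 to 0.22). The windows run from 250 bases before to 50 bases after the start of the RefSeq gene in GRCm38.p6, for Col1a2 at chr6:4505368-4505667, plus strand, and for Col3a1 at chr1:45311288-45311587, plus strand. They are written 5′ to 3′ on the gene's strand. Capitals mark matches on either strand to the CCAAT box, to the TATA box searched with the letters TATAAA, and to the GC box searched with the letters GGGCGG. Where matches overlap they share capitals. The table used here holds no window for Col1a1.
Col1a2: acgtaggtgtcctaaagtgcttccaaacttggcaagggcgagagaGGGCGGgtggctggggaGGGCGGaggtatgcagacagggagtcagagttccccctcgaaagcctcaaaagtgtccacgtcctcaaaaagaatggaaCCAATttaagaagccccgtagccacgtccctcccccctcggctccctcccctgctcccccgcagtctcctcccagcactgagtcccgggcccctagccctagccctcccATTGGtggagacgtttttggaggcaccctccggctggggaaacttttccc
Col3a1: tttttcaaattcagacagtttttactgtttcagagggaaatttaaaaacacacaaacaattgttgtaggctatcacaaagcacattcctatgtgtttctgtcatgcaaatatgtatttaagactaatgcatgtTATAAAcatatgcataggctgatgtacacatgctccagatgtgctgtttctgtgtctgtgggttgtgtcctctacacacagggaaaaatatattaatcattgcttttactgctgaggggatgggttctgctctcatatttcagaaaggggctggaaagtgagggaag
The Col1a2 window held 2 CCAAT and 2 GGGCGG matches, and the Col3a1 window 1 TATAAA match only. Among 32851 windows of 300 bases, 37.4% held CCAAT, 13.6% TATAAA and 35.7% GGGCGG. Of 35 collagens with a window, 13 held CCAAT, 5 TATAAA and 22 GGGCGG. The 2 windows shared no motif of this set.

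Chains of types I and III were also higher at the rim of the section, a grouping that uses no expression value. Places without any counts were taken as off the tissue. Among the 303 spots with a neighbouring place off the tissue, Col1a2 had 149 CPM, and it had 45.5 CPM at the next step inward, then 30.9, 20.3 at steps 3 to 5 and 12.5 at 6 steps and more. Against the 2182 deeper spots, the log2 ratio of the edge was 2.90 (2.37 to 3.42) for Col3a1, 2.71 (2.49 to 2.93) for Col1a2 and 2.39 (1.96 to 2.80) for Col1a1. It was 1.39 (0.69 to 2.03) for Col5a2, 1.25 (0.95 to 1.55) for Col6a2 and 1.07 (0.83 to 1.30) for Col9a2. These 6 of 23 stood against 3.18% of all genes, and 0 of 23 were at least 2-fold lower, against 1.47% of all genes. Without the Ptgds/Foxc2 and Myoc/Acta2 spots, Col1a2 still had 49.8 CPM (38.2 to 63.7) at the edge and 16.8 CPM (11.8 to 23.1) a step inward. The gradient of Col1a2 was therefore present, though smaller, in the remaining spots. Its partner Col1a1 had none beyond counting error there, with 4.74 CPM (1.74 to 10.3) at the edge and 3.63 CPM (1.57 to 7.15) a step inward. Col3a1 had 5.53 CPM (2.22 to 11.4) and 2.72 CPM (1.00 to 5.92), on 7 and 6 UMIs. Without the Ptgds/Foxc2 spots alone, the edge ratio fell below 2-fold for Col9a2 (0.59) and Col6a2 (0.69). The meninges list had 1731 CPM at the edge against 273 deeper, and its part was not tested.

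**Figure D3:**
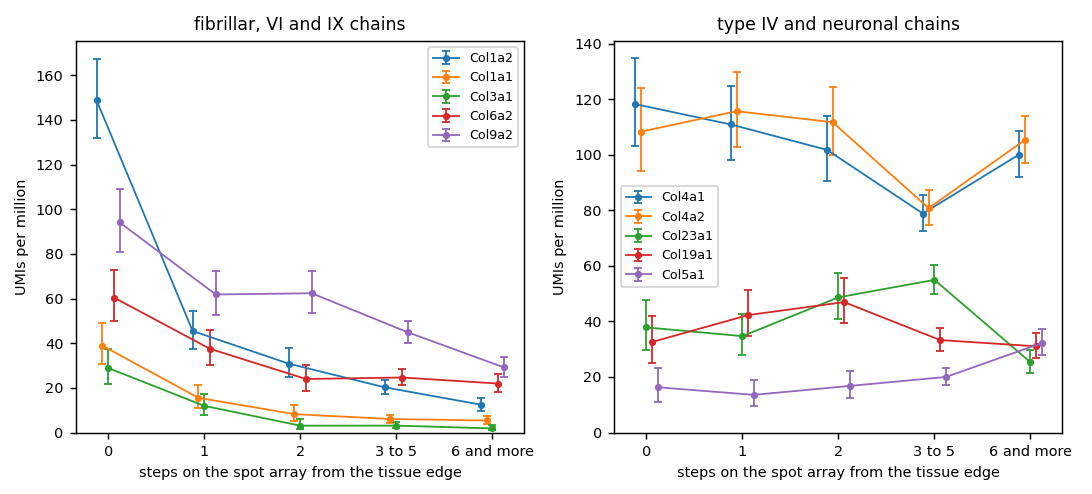
Level in CPM, with 95% Poisson intervals as bars, against steps on the spot array from the edge of the tissue, for 5 chains with at least 2-fold higher levels at the edge (left) and 5 type IV or neuronal chains (right). Col1a2 falls from 149 to 12.5 CPM, while Col4a1 starts at 118 and is at 100.1 in the deepest spots.

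Of the basement membrane chains, Col4a1 and Col4a2 were spread over the whole section. They assemble into the type IV network around vessels, and had 2004 and 2072 UMIs, the highest totals of all collagens. Col4a2 ranged from 50.1 CPM in Trf/Klk6 to 153 in Gpr161/Fezf2, and Col4a1 from 45.2 CPM in Irx2/Cdh23 to 135 in Gpr161/Fezf2. For Col4a1 the top regions could not be ordered: Gpr161/Fezf2, Myoc/Acta2 and Penk/Adam33 had 135 (120 to 152), 135 (111 to 162) and 134 CPM (119 to 150). In the meningeal region the log2 ratio was -0.35 (-0.83 to 0.10) for Col4a1 and -0.51 (-1.01 to -0.05) for Col4a2, and in Myoc/Acta2 it was 0.52 (0.24 to 0.80) and 0.04 (-0.28 to 0.36). Neither chain reached 2-fold in either direction in these regions. Col15a1, a chain of the outer basement membrane zone, had 139 UMIs and was highest in Cartpt/Tcf7l2 (24.8 CPM, 17.8 to 33.7) before Slc6a3/Th (13.6 CPM, 8.98 to 19.8). Among chains under 100 UMIs, the type IV chain Col4a6 had 30 of its 66 UMIs in Myoc/Acta2 (35.4 CPM, 23.9 to 50.6). Col4a5, with 39 UMIs, was highest there too, not beyond Ptgds/Foxc2. Col18a1 had 52 of 69 UMIs in Irx2/Cdh23.

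The 2 type IV genes lie head to head on chromosome 8 and their gene ranges overlap by 85 bases, so their promoter windows are shown together, Col4a1 at chr8:11312777-11313076, minus strand, and Col4a2 at chr8:11312555-11312854, plus strand. The windows share the 78 bases chr8:11312777-11312854 on opposite strands. The Col4a1 window is placed on a start inside the range of the gene, so the overlaps of windows and of ranges rest on different starts.
Col4a1: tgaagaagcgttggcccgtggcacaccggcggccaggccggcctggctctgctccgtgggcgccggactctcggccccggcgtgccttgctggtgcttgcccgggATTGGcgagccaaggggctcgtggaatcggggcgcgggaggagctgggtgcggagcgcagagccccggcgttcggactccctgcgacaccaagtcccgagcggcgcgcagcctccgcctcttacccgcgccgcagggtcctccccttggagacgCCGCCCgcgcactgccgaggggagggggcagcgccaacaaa
Col4a2: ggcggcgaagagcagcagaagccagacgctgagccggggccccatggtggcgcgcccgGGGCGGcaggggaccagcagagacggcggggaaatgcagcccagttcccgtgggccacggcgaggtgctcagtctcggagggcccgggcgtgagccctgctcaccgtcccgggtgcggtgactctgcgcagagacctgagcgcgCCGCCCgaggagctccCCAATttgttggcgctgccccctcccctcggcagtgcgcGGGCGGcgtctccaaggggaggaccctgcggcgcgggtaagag
Both windows held 1 CCAAT match. Col4a1 held 1 GGGCGG match and Col4a2 held 3. Across the section the chains gave 0.97 UMIs of Col4a1 for each of Col4a2 (0.91 to 1.03). By region the ratio ran from 0.71 (0.58 to 0.88) in Cartpt/Tcf7l2 to 1.33 (0.99 to 1.77) in Myoc/Acta2 among regions with over 100 UMIs of the pair. Their levels over the 16 regions, which share 1 library, had a Pearson r of 0.61 and a Spearman rho of 0.56. For Col1a2 with the summed meninges markers r was 0.99 and rho 0.88. For Col4a1 with the summed endothelium markers r was 0.07 and rho -0.02.

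Spots with endothelial transcripts had no measurably higher Col4a1 or Col4a2. Outside the meningeal region, 2171 spots had at least 1 UMI of the endothelium list and 220 had none, with medians of 6977 and 4908 UMIs in all. With regions as strata, the log2 ratio was -0.16 (-0.41 to 0.09) for Col4a1 and -0.09 (-0.34 to 0.15) for Col4a2. The upper bounds of both intervals lay well under 2-fold. The split parts vessel content only weakly, as the mural genes, which it did not use, had a median log2 ratio of 0.55. The bounds therefore hold for this split and do not give the level of Col4a1 or Col4a2 in vessels. The mural list had 142 CPM in spots with endothelial UMIs and 84.5 CPM in the others, the meninges list 344 against 184 and the white matter list 6894 against 10837. Their part was not tested. Col2a1, the fibrillar chain of cartilage, had a log2 ratio of -1.09 (-1.71 to -0.47). It was 1 of 23 collagens at least 2-fold lower, against 0.183% of genes, and Col1a1 (1.09, -0.34 to 2.53, with 4 UMIs in the spots without) was 1 of 23 higher, against 1.16%. The grouping depends on depth: with each spot thinned to 2000 UMIs, 1334 spots had an endothelial UMI and 987 had none. Of the 11 collagens that still had enough counts, 0 differed 2-fold in either direction. Col2a1 was not among these 11, so its difference was not measured at equal depth.

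In the cortex Col6a1 and Col5a1 differed between layers. Col6a1, the first chain of type VI collagen, had 177 UMIs in the 208 deep cortex spots and 47 in the 209 upper cortex spots, 87.9 against 18.1 CPM, a log2 ratio of 2.28 (1.81 to 2.77), or 1.495 with all barcodes. Col5a1, which starts and sizes fibrils in connective tissue, had 188 and 72 UMIs, 93.3 against 27.8 CPM, a ratio of 1.75 (1.35 to 2.16). Both were among the 10 leading genes of the deep cortex region although neither was used to define it. These 2 of 9 collagens with enough counts stood against 1.47% of genes at least 2-fold higher in deep cortex. None was at least 2-fold lower (0 of 9), against 1.6% of genes. Col6a2 was 0.81 higher (0.42 to 1.20). Toward the upper layers leaned Col26a1 (-0.93, -1.48 to -0.40) and Col19a1 (-0.56, -0.93 to -0.20), while Col4a1 (-0.29, -0.56 to -0.02) and Col4a2 (-0.14, -0.40 to 0.12) stayed close to equal. The meninges list was low in both, at 82.4 and 166 CPM. The white matter list had 4129 CPM in deep and 1337 in upper cortex, and its part was not tested.

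The promoter windows of Col5a1 and Col6a1 are shown because these were the chains at least 2-fold higher in deep than upper cortex. Over all 16 regions their levels had a Pearson r of 0.89 and a Spearman rho of 0.65, and in Penk/Adam33 Col6a1 was higher than elsewhere (0.71) and Col5a1 lower (-2.29). The windows are Col5a1 at chr2:27886175-27886474, plus strand, and Col6a1 at chr10:76725995-76726294, minus strand. That of Col5a1 is placed on a start inside the range of the gene.
Col5a1: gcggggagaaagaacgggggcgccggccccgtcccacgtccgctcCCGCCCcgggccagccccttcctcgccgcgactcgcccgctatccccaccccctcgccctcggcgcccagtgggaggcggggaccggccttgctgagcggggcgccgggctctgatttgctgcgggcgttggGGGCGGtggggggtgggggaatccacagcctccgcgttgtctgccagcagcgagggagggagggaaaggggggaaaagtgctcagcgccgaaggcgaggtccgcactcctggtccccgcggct
Col6a1: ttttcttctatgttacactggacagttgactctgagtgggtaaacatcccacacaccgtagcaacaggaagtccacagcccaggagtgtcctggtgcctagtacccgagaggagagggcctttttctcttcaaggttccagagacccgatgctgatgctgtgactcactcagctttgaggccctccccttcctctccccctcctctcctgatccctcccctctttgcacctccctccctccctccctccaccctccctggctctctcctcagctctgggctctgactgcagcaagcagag
The Col5a1 window held 2 GGGCGG matches, and the Col6a1 window held none of the motifs. Col5a2, the partner chain of type V, had 5.02 CPM in upper and 3.47 in deep cortex and 0 UMIs in layer 6b. Col6a2, the partner of Col6a1, was higher in deep cortex by less and had its highest level in Ptgds/Foxc2. Over the 16 regions Col6a1 and Col6a2 had a Pearson r of 0.48 and a Spearman rho of 0.81. Col6a1 gave 1.34 UMIs for each of Col6a2 (1.06 to 1.69) in deep cortex, 0.48 (0.33 to 0.69) in upper cortex and 0.15 (0.07 to 0.29) in the meningeal region. The 2 genes lie 85.2 kb apart on chromosome 10. Col3a1 and Col5a2 lie 24.6 kb apart on chromosome 1, and Col1a1 and Col1a2 on different chromosomes. Col1a1 gave 0.33 UMIs for each of Col1a2 in Myoc/Acta2 (0.26 to 0.42) and in Ptgds/Foxc2 (0.22 to 0.47), and 0.27 (0.21 to 0.34) in all other regions together. Upper cortex had 0.125 (0.039 to 0.317) from 5 Col1a1 UMIs.

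Layer 6b, the thin deepest layer of cortical neurons, added a transmembrane chain. Col23a1, a collagen anchored in the cell membrane, had 84 UMIs in the 69 Ccn2/Cplx3 spots against 30 in deep cortex, 90.5 against 14.9 CPM, a log2 ratio of 2.60 (1.99 to 3.26). It was the 1 of 7 collagens at least 2-fold higher, against 1.29% of genes. Col6a1 (-1.65, -2.30 to -1.05) and Col5a1 (-1.58, -2.20 to -1.01) were the 2 of 7 at least 2-fold lower, against 2.61%. The region lies in 2 places on the array, and nearly all deep cortex spots (207 of 208) lie at array columns of 64 and above. In that part, the 24 layer 6b spots had 99.5 CPM of Col5a1 against 93.9 in deep cortex, a log2 ratio of 0.08 (-0.57 to 0.68). The ratio there was -0.94 (-1.92 to -0.10) for Col6a1 and 2.03 (1.06 to 2.95) for Col23a1. The 45 spots at lower columns had 4.50 CPM of Col5a1 from 3 UMIs. The lower Col5a1 of layer 6b thus came from spots away from the deep cortex, while the higher Col23a1 was present in both places (102 and 61.2 CPM). The layer 6b markers summed to 1058 CPM at lower and 524 CPM at higher columns.

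**Figure D4:**
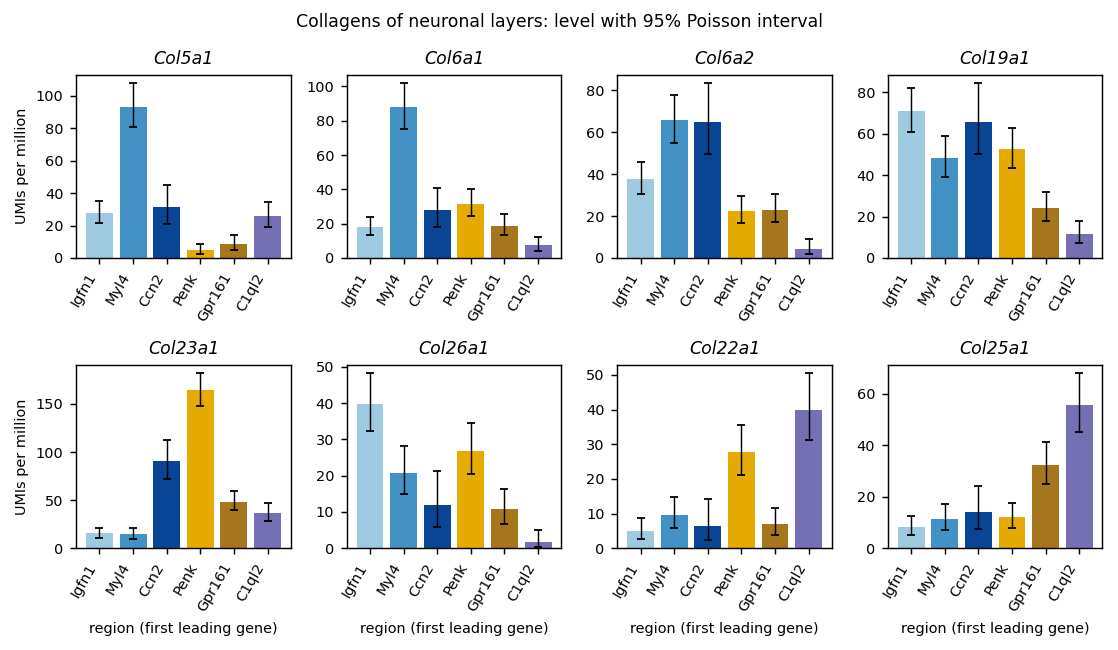
Level in CPM, with 95% Poisson intervals, of 8 collagens in 6 neuronal regions, each called by its first leading gene (Igfn1 upper cortex, Myl4 deep cortex, Ccn2 layer 6b, Penk, Gpr161, C1ql2 dentate gyrus). Col5a1 and Col6a1 stand highest in deep cortex, Col23a1 in Penk/Adam33 before layer 6b, and Col22a1 and Col25a1 in the dentate gyrus.

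Col23a1 had its own highest level in Penk/Adam33, a region of 143 spots led by Penk, Adam33, Wnt2b and Reln for which the markers gave no name. It held 368 of the 877 Col23a1 UMIs in 79 spots, 164 CPM against 27.1 elsewhere, a log2 ratio of 2.60 (2.40 to 2.79), and was above layer 6b by 0.86 (0.51 to 1.22). Within the region the level was 212 CPM (190.5 to 236) in the 89 spots below array column 64 and 31.7 CPM (19.1 to 49.6) in the 54 others. Layer 6b spots that touch the region had 127 CPM (93.8 to 168) and those that do not 64.6 CPM (45.0 to 89.9). Col22a1, which is found at tissue junctions, was also higher, at 27.6 against 11.1 CPM (1.31, 0.88 to 1.73), and the 2 of 23 stood against 1.69% of genes. At the other end, all 9 fibrillar chains with at least 100 UMIs were at least 2-fold lower, from -1.46 for Col2a1 to -3.94 for Col3a1 (1 UMI). With Col15a1, Col25a1 and Col9a3 these made 12 of 23 lower, against 10.2% of genes. Col25a1 (-1.01) and Col9a3 (-1.03) lay at the threshold and fell short of it under several alternatives, down to -0.79 and -0.93. The meninges list had 98.5 CPM there against 442 elsewhere, and the mural list 40.1 against 155; their part was not tested. Col4a1 was higher by 0.56 (0.38 to 0.74).

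The dentate gyrus, the granule cell layer of the hippocampus, was poor in most collagens by CPM, a share of all UMIs. Its 54 spots were deep (median 30719.5 UMIs, against 10767.5 in the pooled cortical spots), so its levels rest on many UMIs per spot. A lower CPM there need not mean fewer UMIs per spot. By UMIs per spot, Col4a1, Col4a2, Col11a2 and Col25a1 were among the chains highest in the dentate gyrus of all regions. Only Col22a1 (40.0 against 6.87 CPM, 2.54, 1.95 to 3.15) and Col25a1 (55.7 against 10.3 CPM, 2.44, 1.95 to 2.93) were at least 2-fold higher than in cortex, 2 of 13 against 6.48% of genes. Col25a1 is a neuronal transmembrane collagen known for binding amyloid and for muscle innervation. Lower by at least 2-fold were 8 of 13, against 13.2% of genes. The lowest were Col26a1 (-4.06, -6.35 to -2.49, 3 UMIs), Col6a2 (-3.54, -4.76 to -2.54), Col6a1 (-2.63, -3.56 to -1.83) and Col16a1 (-2.50, -3.98 to -1.33). Col19a1 (-2.39), Col9a2 (-1.77), Col9a3 (-1.33) and Col5a1 (-1.01) followed. Col9a2 fell short of 2-fold with all barcodes (-0.59), and Col5a1 without a UMI minimum (-0.81), at Leiden resolution 1.5 (-0.95) and with no gene left out of the clustering (-0.95). The type IV chains were below cortex by less, Col4a1 by -0.46 (-0.74 to -0.18) and Col4a2 by -0.80 (-1.12 to -0.50). The endothelium list had 114 against 280 CPM and the astrocyte list 1689 against 3735. Their part was not tested. Col20a1, a fibril-associated chain, had its highest level in the dentate gyrus as well (24.8 CPM, 18.0 to 33.2, 44 of 160 UMIs).

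Irx2/Cdh23, a region of midbrain and pons with Irx and Hox genes among its leading genes, held 1 high collagen. Col27a1, a fibrillar chain of cartilage, had 258 of its 352 UMIs (73.3%) there in 118 of 195 spots, 120.2 CPM against 4.99 elsewhere, a log2 ratio of 4.59 (4.25 to 4.95). The next region, Trf/Klk6, had 25.1 CPM (10.8 to 49.4). It was the 1 of 23 collagens at least 2-fold higher, against 4.16% of genes. The 12 of 23 at least 2-fold lower, against 12.1% of genes, included Col25a1 (-4.77, 2 UMIs), Col6a1 (-4.03, 3 UMIs), Col19a1 (-2.29), Col6a2 (-2.25), Col23a1 (-2.21) and Col4a1 (-1.16, -1.47 to -0.87). The meninges list had 159 CPM there against 433 and the endothelium list 489 against 395, and their part was not tested. Of the chains under 100 UMIs, this region also held 52 of 69 UMIs of Col18a1, 41 of 64 of Col6a3, 31 of 64 of Col28a1 and 12 of 24 of Col14a1.

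**Figure D5:**
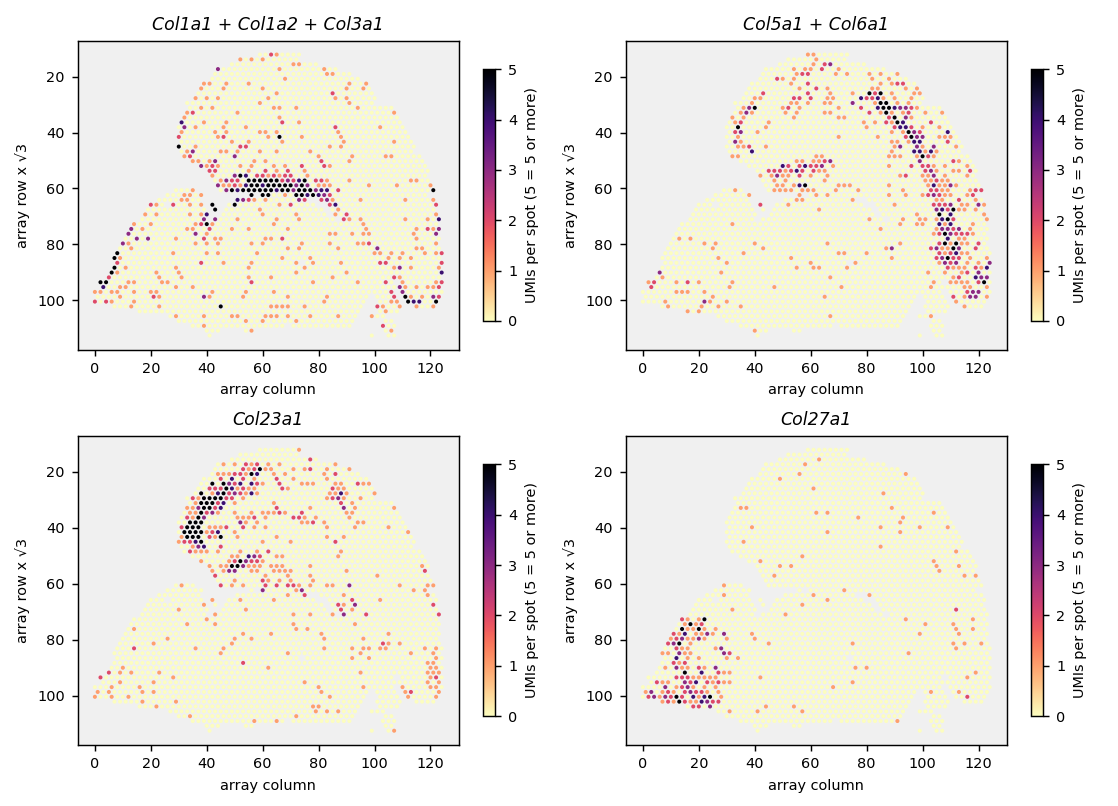
Place on the spot array of the UMIs of Col1a1, Col1a2 and Col3a1 summed, of Col5a1 and Col6a1 summed, of Col23a1 and of Col27a1, with darker points for more UMIs per spot (5 or more in the darkest). The 4 patterns lie in an inner band and parts of the rim, in a band under the right-hand surface, in a curved field at the upper left and in the lower left corner.

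Other subcortical regions had chains of their own. Tph2/Slc18a2, led by serotonergic genes, had the highest Col25a1 (69.8 CPM, 48.0 to 98.0), Col11a1 (44.4 CPM, 27.5 to 67.9) and Col2a1 (31.7 CPM, 17.8 to 52.3), each on 15 to 33 UMIs and none beyond counting error above the region that followed it. Slc18a3/Cartpt, led by Slc18a3, Cartpt, Prph and Sncg, was made of only 21 spots. It had 12 UMIs of Col5a2, or 81.0 CPM (41.9 to 142), above Myoc/Acta2 by a log2 ratio of 1.93 (0.74 to 3.06). Col16a1 was high in the same region (74.3 CPM) and in Cartpt/Tcf7l2 (66.6 CPM, 54.7 to 80.2). Upper cortex had the highest Col19a1 (71.0 CPM, 61.1 to 82.0), not beyond layer 6b (65.7 CPM, 50.3 to 84.4), and the highest Col26a1 (39.7 CPM, 32.4 to 48.2).

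The chains of type IX collagen had different leading regions. Col9a2 peaked in Ptgds/Foxc2 and Myoc/Acta2 and had 47.0 CPM (26.3 to 77.5) in the white matter region Trf/Klk6. Col9a3 peaked in Trf/Klk6 with 97.1 CPM (66.0 to 138) on 31 UMIs, not beyond Myoc/Acta2 with 83.9 CPM (65.5 to 106). The UMIs of Col9a3 for each of Col9a2 were 2.07 (1.08 to 4.12) in Trf/Klk6, 0.55 (0.41 to 0.75) in Myoc/Acta2 and 0.26 (0.16 to 0.41) in Ptgds/Foxc2. The intervals of Trf/Klk6 and of the other 2 regions did not overlap. The third chain, Col9a1, had 16 UMIs in all.

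Genes that make, process and bind collagen were counted by list. In the meningeal region 1 of 16 folding genes, 1 of 7 processing genes, 4 of 7 receptors, 5 of 11 basement membrane partners, 5 of 10 fibrous matrix partners and 2 of 5 degradation genes were at least 2-fold higher, against 6.23% of all genes. In Myoc/Acta2 the counts were 5 of 16, 2 of 7, 7 of 7, 7 of 11, 9 of 10 and 3 of 5, against 11.4% of all genes. The 1 of 16 folding and 1 of 7 processing genes of the meningeal region lay near its share. Serpinh1, the chaperone of the collagen helix, had log2 ratios of 2.44 (1.93 to 2.92) and 2.84 (2.44 to 3.21) in the meningeal and the Myoc/Acta2 region. Pcolce, which enhances procollagen cleavage, had 3.18 (2.77 to 3.58) and 3.91 (3.58 to 4.23). The collagen uptake receptor Mrc2 had 3.50 and 3.00, the fibril-binding proteoglycan Fmod 3.58 and 4.13, and Bgn of the same family 4.30 in Myoc/Acta2. Timp3, an inhibitor of matrix proteases, had 1.56 and 2.70. In Penk/Adam33, 8 of 10 fibrous matrix partners were at least 2-fold lower and 1 higher, 6 of 11 basement membrane partners lower and 2 higher, and 4 of 7 receptors, 2 of 16 folding and 2 of 7 processing genes lower, against 10.2% of all genes lower and 1.69% higher. In Irx2/Cdh23, 7 of 10 fibrous matrix partners, 3 of 11 basement membrane partners, 3 of 7 processing genes and 1 of 7 receptors were lower, against 12.1% of all genes. Higher there were 1 gene each of the folding, processing and basement membrane lists, against 4.16%, among them Adamts2, a procollagen N-proteinase (2.79, 2.61 to 2.96), and the laminin chain Lama1 (3.41, 2.99 to 3.82). In the dentate gyrus 2 of 4 fibrous matrix partners were higher than in cortex and 2 lower, with 2 of 5 processing genes higher and 1 lower, against 6.48% and 13.2% of all genes. Tested in deep against upper cortex were 10 folding, 4 processing, 2 receptor, 3 basement membrane, 2 fibrous matrix and 3 degradation genes. Of these 1, a processing gene, was at least 2-fold lower and none higher, against 1.6% and 1.47% of all genes. In layer 6b against deep cortex the numbers tested were 9, 1, 2, 3, 1 and 3. There the processing gene was lower and 1 degradation gene higher, against 2.61% of all genes lower and 1.29% higher. Bmp1, the procollagen C-proteinase, was lower in deep than upper cortex (-1.22, -1.47 to -0.99) and in layer 6b than deep cortex (-1.84), and higher in the dentate gyrus than cortex (1.53, 1.39 to 1.68). Adgrg1, a receptor for type III collagen, was lower in the dentate gyrus (-1.79, -2.49 to -1.16), and the proteinase Adamts2 was lower there by -3.92 on 3 UMIs. Timp2 was higher in layer 6b than in deep cortex (1.31, 1.11 to 1.51).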

How the data were processed

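Space Ranger 3.1.1 made the deposited UMI counts, per the file headers, and mm10 is named in the submitters' processing notes; the probe set is not given in the sources used here. Spots under tissue in the WT list with at least 500 UMIs were kept. They were clustered with scanpy 1.11.5 (counts scaled to 10000 per spot, 2000 variable genes seen in at least 10 spots, 30 components, 15 neighbours, Leiden resolution 1, seed 0), with 285 listed genes left out. A region took a marker class name from at least 3 markers 2-fold higher, more than of any other class. At least 1 had to be among its 10 leading genes, with no other class having more there. The names so given to Gpr161/Fezf2, Slc6a3/Th and Slc18a3/Cartpt were not used. Spots were neither screened for doublets nor deconvolved.

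Counts were summed over the spots of each side and divided by all UMIs (CPM), and log2 ratios have exact conditional intervals (95%, scipy 1.17.1). A count of 0 was set to 3. Genes with at least 100 counts over both sides were used. The vessel comparison is a Mantel-Haenszel rate ratio over regions. Scripts were tested on simulated counts. The named genes are the chains past 2-fold whose interval leaves out 0, and at most 3 per pathway list; others are named to complete a count. The members and lists were chosen with earlier results of these data known. The Myoc/Acta2, Irx2/Cdh23 and Penk/Adam33 comparisons, the array split and the naming thresholds were set after the data were seen. Alternatives covered the count minimum, TMM scaling (edgeR 4.0.16), the spot filter, the clustering and the spots compared.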

Additional observations from a re-analysis of the deposited data

Results flagged for a closer look

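The 235 barcodes outside the WT tissue outline, which no comparison above used, had 697435 UMIs. Of these 930 were collagen UMIs, or 1333 CPM (1249 to 1422), against 660 CPM in tissue, so collagen was above the level of the tissue spots in data outside the main measurement. Col1a2 had 244 CPM there against 34.2 in tissue, Col1a1 60.2 against 10.3, Col3a1 37.3 against 6.14 and Col6a2 97.5 against 28.6. Col4a1, with 106 against 95.4 CPM, and Col23a1, with 48.8 against 41.8, were closer to the tissue. The cause was not tested.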

How the results depend on the processing

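Of 446 values of 62 named chain ratios under alternatives, 412 moved by less than counting error, 34 moved by more and 0 reversed. The minimum of 20 counts leaves each ratio unchanged, so its values among the 412 could not move. Chains with too few counts in an alternative, and comparisons that could not be formed, gave no value. With a minimum of 20 counts, the chains at least 2-fold higher became 10 in the meningeal region, 13 in Myoc/Acta2, 3 in vessel spots, 5 in the dentate gyrus, 11 at the edge and 5 in Irx2/Cdh23. Those at least 2-fold lower became 4 in Myoc/Acta2, 1 in deep cortex, 2 at the edge and 19 in Penk/Adam33. The counts at this minimum take in more chains, some with as few as 20 counts. Neither they nor the counts under other alternatives that follow are set beside a share of all genes. None of these counts can be read as a stronger collagen result. Lower in Myoc/Acta2 were 1 without a UMI minimum and 4 at Leiden resolution 1.5. In vessel spots 0 were higher without a UMI minimum, with all barcodes, at resolution 0.6, with no gene left out of the clustering, without edge spots or after thinning, and 2 without strata. After thinning 0 were lower, but Col2a1 then had too few counts to be compared. In deep cortex 1 was lower without a UMI minimum, at resolution 0.6 and 1.5, and with no gene left out. At the edge 1 was lower with all barcodes or without the meningeal region. TMM scaling moved all ratios by at most 0.10 and changed no named direction. By UMIs per spot in place of CPM, 7 chains had another highest region, among them Col4a1, Col4a2 and Col25a1, then highest in the dentate gyrus. At resolution 0.6 neither surface comparison nor layer 6b could be formed, nor the meningeal region with no gene left out, nor layer 6b with all barcodes. No paired analysis was possible because the samples hold 1 library. Limits: 1 section, no replicate, mixed spots, and 21 chains with under 100 UMIs.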
